A study of Mus musculus with 3 samples.

Results

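Cluster 0 was the largest of the 6 deposited clusters (numbered 0 to 5) in a mouse single-cell RNA sequencing study of CD45-positive cells sorted from the thalamus. Its members were the cells that carry the value 0 in the authors' cluster column, 2845 of 7598 deposited cells, and no expression threshold of any kind was added here. WT vehicle held 1327 of them, cKO IL-33 held 1374 and WT IL-33 held 144. Clusters 1 to 5 held 1870, 1338, 928, 384 and 233 cells over the 3 libraries.

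Each of the 3 groups was 1 library, taken 4 h after injection into the brain's ventricles. WT vehicle and WT IL-33 were heterozygous for Cx3cr1-creER, a drug-inducible Cre allele expressed from the promoter of the fractalkine receptor gene, and got vehicle or the alarmin interleukin-33. The cKO IL-33 library carried the same Cre allele together with a homozygous floxed ST2 gene, which encodes the IL-33 receptor, and got IL-33. All 3 groups thus carry the Cre allele, which acts in microglia and in other cells that express Cx3cr1, such as border macrophages and monocytes. The sources used here do not say how many animals were pooled, how old they were or whether an inducing drug was given. The deposited sex calls in cluster 0 were 7 female and 1320 male cells in WT vehicle, 1349 and 25 in cKO IL-33, and 89 and 55 in WT IL-33. With 1 library per group and these sex calls, treatment, genotype, sex and library cannot be told apart, and no p-value was computed for any comparison.

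Microglia are the resident macrophages of the brain. In the undisturbed state they express a set of genes, often called homeostatic, that includes the purine receptor gene P2ry12, the membrane protein gene Tmem119 and the fractalkine receptor gene Cx3cr1, and signalling by transforming growth factor beta keeps many of these genes on. Inflammatory stimuli lower much of this set while cytokine and chemokine genes are induced.

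The 6 genes that accompany the label of cluster 0 come from several pathways. Hpgd encodes the dehydrogenase that inactivates prostaglandins, and Ltc4s encodes leukotriene C4 synthase. Rgs10 encodes a regulator that shortens G protein signalling, Gpr34 a receptor for lysophosphatidylserine, and H2-DMb1 a chain of the molecule that helps load peptides onto MHC class II. Ypel3 encodes a small member of the yippee-like family. In the GRCm38 annotation, Hpgd lies at chr8:56294585-56321043 on the plus strand, Ypel3 at chr7:126776955-126780514 (plus) and Rgs10 at chr7:128373621-128418758 (minus). Ltc4s lies at chr11:50236461-50238616 (minus), Gpr34 at chrX:13632089-13640858 (plus) and H2-DMb1 at chr17:34153072-34160230 (plus).

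Cluster 0 cells held 17246306 UMIs (unique molecular identifiers, each standing for 1 captured RNA molecule). The median was 5305 UMIs per cell in WT vehicle, 4881.5 in cKO IL-33 and 3230 in WT IL-33, against 5912, 5455 and 4013 in clusters 1 to 5 of the same libraries. The median mitochondrial percent of UMIs in cluster 0 was 2.92, 2.45 and 2.05 in that order, and the median ribosomal percent was 15.9, 13.9 and 12. Only 2 barcode sequences occurred in more than 1 library, and 1 cluster 0 cell carried one of them.

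The unit of level is CPM, in which the UMI count of a gene is scaled to the total of the summed cells of a cluster in a library, and a ratio divides the CPM of cluster 0 by that of the cells on the other side. Every interval is an exact 95% interval that covers counting error only. A gene was tested for size where it reached 50 CPM on either side, and it was called where the ratio was at least 1.5-fold with an interval that left out 1. The authors formed the clusters from the expression of these same cells, so all comparisons between clusters describe the partition and are no test of it.

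Il1rl1, the ST2 gene that the cKO allele targets, was low in cluster 0 of every library. It was at 12.7 CPM (10.4 to 15.4, 106 UMIs) in WT vehicle, 12 CPM (9.79 to 14.6, 101 UMIs) in the cKO library and 5.82 CPM (1.2 to 17, 3 UMIs) in WT IL-33. The 3 intervals overlapped. UMIs of this assay come from the ends of transcripts, and the sources used here do not place the floxed exons, so this level does not check the deletion.

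Within WT vehicle, all 6 label genes were higher in cluster 0 than in clusters 1 to 5, by 1.12-fold to 1.27-fold. Hpgd was at 297 CPM in cluster 0 and at 239.6 CPM in clusters 1 to 5, a ratio of 1.24 (1.17 to 1.31). Ltc4s was at 1332 and 1052 CPM (1.27, 1.23 to 1.30), and Rgs10 at 1234 and 1025 CPM (1.2, 1.17 to 1.24). Both of these genes belong to signalling by lipids or by G proteins. Ypel3 was at 205 and 171 CPM (1.2, 1.12 to 1.28), and H2-DMb1, the class II loading gene, at 94.5 and 80.4 CPM (1.18, 1.06 to 1.30). Gpr34 was at 1248 and 1117 CPM, with the smallest ratio, 1.12 (1.09 to 1.15). None of the 6 reached the 1.5-fold size.

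The same 6 genes stood 1.53-fold to 1.69-fold higher in cluster 0 when the cells of all 3 libraries were summed, as the label's rule does first. The summed ratio was 1.69 for Hpgd (306 against 181 CPM), 1.66 for Ypel3, 1.61 for H2-DMb1, 1.58 for Rgs10, 1.57 for Ltc4s and 1.53 for Gpr34. In that sum, 1815 of the 4753 cells of clusters 1 to 5 were cluster 1 cells of WT IL-33, which held 48.4 CPM of Hpgd and 260.3 CPM of Gpr34. Within cKO IL-33 the ratios were close to those of WT vehicle, at 1.16 for Hpgd (318 against 274 CPM), 1.16 for Ypel3, 1.23 for Rgs10, 1.25 for Ltc4s, 1.07 for Gpr34 and 1.16 for H2-DMb1. Within WT IL-33 they were 4.45 for Hpgd (264 against 59.3 CPM), 3.81 for Ypel3, 2.32 for Rgs10, 2.11 for Ltc4s, 3.91 for Gpr34 and 3.24 for H2-DMb1. The level in cluster 0 itself moved far less between libraries than the level on the other side.

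**Figure D1:**
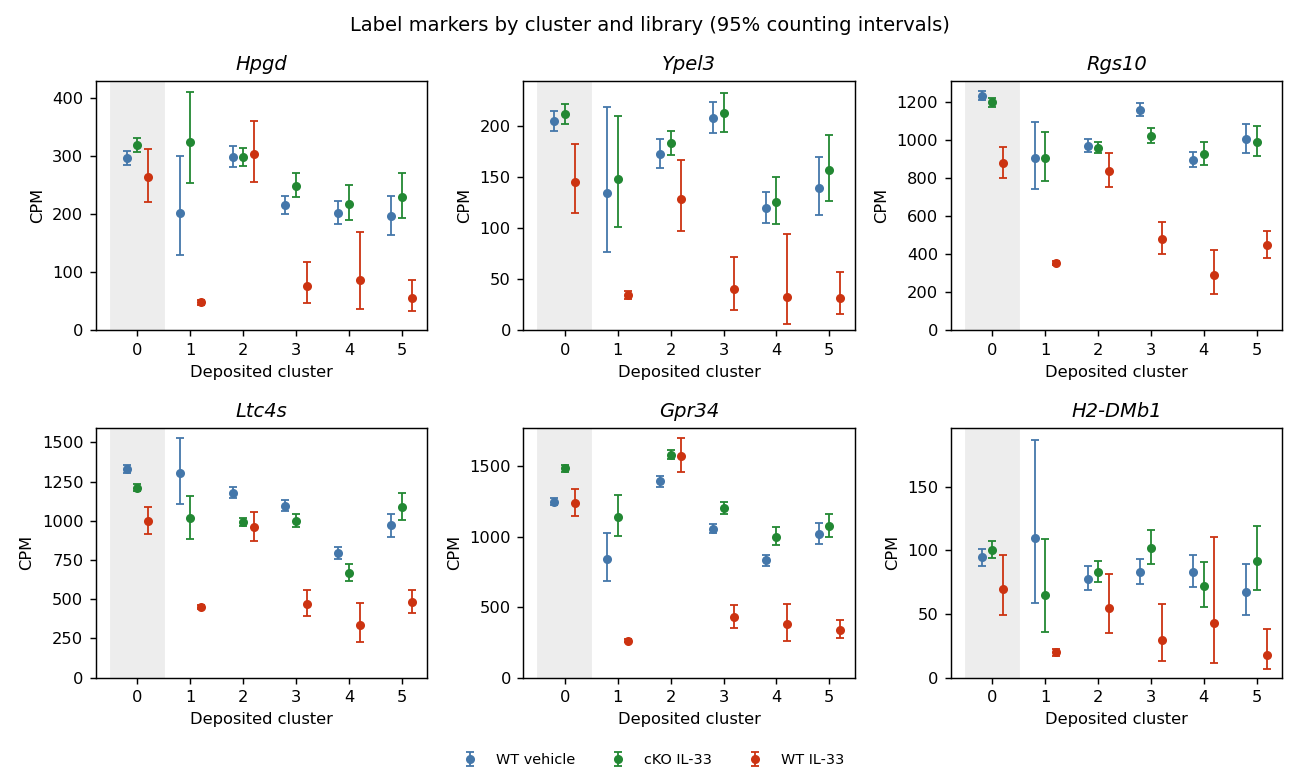
CPM of the 6 label genes (one panel each, linear axes from 0) in each deposited cluster, with one point per library and 95% counting intervals. Cluster 0 is shaded. In WT vehicle and cKO IL-33 the clusters lie close together, while in WT IL-33 clusters 0 and 2 lie above clusters 1, 3, 4 and 5.

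Cluster by cluster, the label genes set cluster 0 apart most from cluster 4 and least from cluster 2. In WT vehicle, Hpgd was at 297 CPM in cluster 0 and 299 CPM in cluster 2, a ratio of 0.994 (0.923 to 1.07), so no difference was detectable at this depth. Gpr34 was higher in cluster 2, at 1393 CPM against 1248 CPM in cluster 0, which made cluster 0 1.12-fold lower (1.08 to 1.16). Rgs10 was higher in cluster 0 than in cluster 2, at 1.27-fold (1.22 to 1.32), and H2-DMb1 at 1.22-fold (1.06 to 1.40). Against cluster 3, Ypel3 was at 205 and 208 CPM (0.985, 0.903 to 1.08), and Hpgd was 1.37-fold higher in cluster 0. Against cluster 4, where Mki67, a marker of dividing cells, was at 917 CPM, Ypel3 was 1.72-fold, Ltc4s 1.68-fold and Gpr34 1.5-fold higher in cluster 0. H2-DMb1 was 1.14-fold higher there, with an interval that held 1 (0.969 to 1.35). Of the 6 genes, Hpgd and Gpr34 did not place cluster 0 above cluster 2.

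Single cells showed the same overlap. Each cell was thinned to 3000 UMIs, which left out 38, 46 and 52 shallower cluster 0 cells in WT vehicle, cKO IL-33 and WT IL-33. A cluster 0 cell then held a median of 13 UMIs of the 6 label genes in WT vehicle (10th to 90th percentile 8 to 19) and 13 in cKO IL-33 (8 to 19), and 10.5 in WT IL-33 (6 to 16.9). The WT vehicle medians were 12 in cluster 2, 11 in cluster 3, 8 in cluster 4 and 11 in cluster 5. Of the cluster 2 cells of WT vehicle, 46.6% held at least the cluster 0 median, beside 55.7% of the cluster 0 cells themselves. In WT IL-33 the median was 3 in cluster 1, and 2.49% of those cells reached the cluster 0 median of that library. Cluster 2 of WT IL-33 had a median of 13, above that of cluster 0, and 71.0% of its cells reached the cluster 0 median. At least 4 of the 6 genes were detected in 73.9% of thinned cluster 0 cells of WT vehicle (90.7% before thinning) and in 71.2% of thinned cluster 2 cells (90.5%). No deposited cluster is of a cell type that should lack these genes, so no background share from free RNA is available for them.

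**Figure D2:**
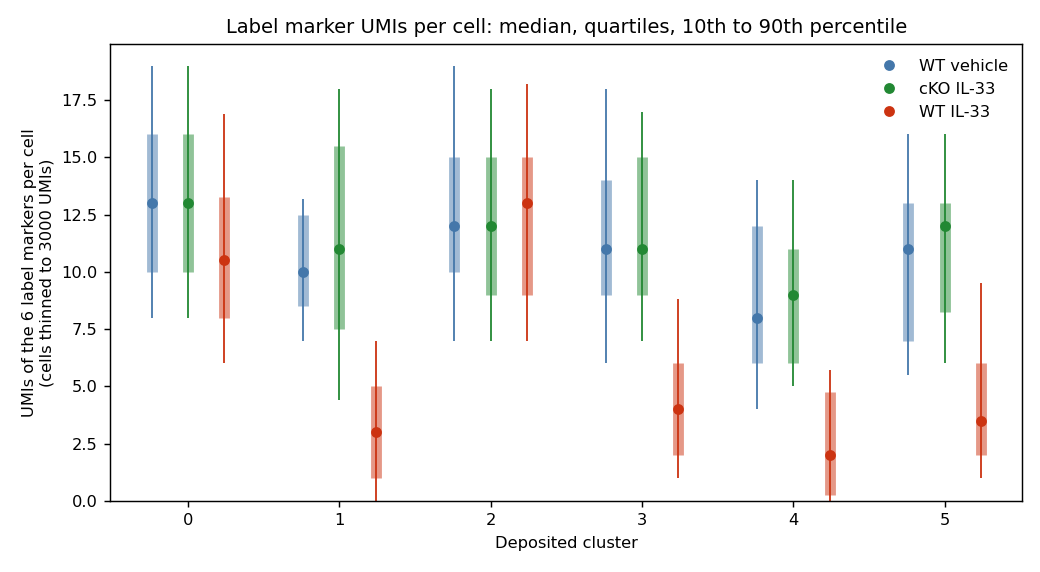
UMIs of the 6 label genes per cell after thinning to 3000 UMIs, by deposited cluster (x axis) and library (colour). Points are medians, thick bars quartiles and thin lines the 10th to 90th percentile. Cluster 0 medians of 13 in WT vehicle and cKO IL-33 sit inside the quartiles of cluster 2.

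The wider homeostatic set leaned the same way by small amounts. It includes at least the label gene Ltc4s, so it is not independent of the label genes. Of 30 homeostatic genes on a list, all at 50 CPM or more, 25 were above a ratio of 1 in WT vehicle and 0 were called in either direction, beside 0% of all 3525 genes of that comparison called higher and 1.82% called lower. Their median log2 ratio was 0.09, where the median over all tested genes was -0.05. P2ry12 was at 3808 CPM in cluster 0 and 3429 CPM in clusters 1 to 5 (1.11-fold), Tmem119 at 1394 and 1270.2 CPM (1.10-fold) and Cx3cr1 at 2660.4 and 2537 CPM (1.05-fold). Siglech, a sialic acid-binding receptor, had a larger ratio, 1.2, and Cst3, the protease inhibitor cystatin C, 1.24. Sall1, a transcription factor of microglial identity, was at 462 CPM in cluster 0 and 465 CPM outside it (0.995, 0.953 to 1.04). In cKO IL-33, 16 of the 30 genes were above 1, with a median of 0.02. Over all tested genes of that library the median was -0.07, with 1329 genes above 1 and 2340 below. P2ry12 (1.02-fold) and Siglech (1.04-fold) were nearer to 1 in cKO IL-33 than in WT vehicle.

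The defining genes of microglia were thus present in cluster 0 at high levels, but they were present outside it as well. Markers of most other cell types were scarce. The exceptions were Plac8 of the monocyte list and Cd79b of the B cell list, each at 50 CPM or more in cluster 0 of WT vehicle. In that library the 3 B cell and 2 natural killer cell genes with UMIs had a higher level in cluster 0 than outside it. Of the 4 monocyte genes with UMIs, 1 had a higher level and 3 a lower one. In WT vehicle, cluster 0 held 0 UMIs of the 6 T cell genes, 1 UMI of the 5 neutrophil genes and 34.5 CPM of the 8 border macrophage genes, against 119 CPM of the latter in clusters 1 to 5. Of those 8, Mrc1, the mannose receptor, made up most of the sum at 29.8 CPM in cluster 0 and 73.2 CPM outside it, while Pf4 was at 1.44, Cd163 at 0.360 and Lyve1 at 0.240 CPM in cluster 0. Astrocyte genes summed to 2.16 CPM in cluster 0 and 32.2 CPM outside it, and Ttr, the choroid plexus transcript, had 0 UMIs in the cluster 0 cells of any library.

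No gene was called higher in cluster 0 than in clusters 1 to 5 of WT vehicle, 0 of 3525 tested (0%), and 0 of 3669 were in cKO IL-33 (0%). The WT IL-33 library differed, with 678 of 4136 genes (16.4%) called higher and 583 (14.1%) lower, on a side that was mostly cluster 1. The highest ratio of any tested gene in WT vehicle was 1.35. At a lower size of 1.2-fold, chosen after the values were seen, 50 genes (1.42%) were higher in WT vehicle and 149 (4.06%) in cKO IL-33. The 24 genes on both lists made up 48% of the first and 16.1% of the second, and 1 of them was a ribosomal protein gene.

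The members named here were also picked after their values were seen. Supt4a, a transcription elongation factor, was at 111 CPM in cluster 0 and 86.1 CPM outside it in WT vehicle (1.29-fold) and was 1.23-fold higher in cKO IL-33. Tnfaip8l2, a brake on immune receptor signalling, was at 252 and 197 CPM (1.28-fold) and 1.22-fold higher in cKO IL-33. Higd2a and Cox7a2l, which serve the assembly of respiratory chain complexes, were 1.28-fold and 1.24-fold higher in WT vehicle. Alox5ap, the partner protein of leukotriene synthesis, was at 367 and 301 CPM (1.22-fold), and 1.25-fold higher in cKO IL-33. Together with Ltc4s and Hpgd it gave 3 of the 10 measured eicosanoid genes at 1.2-fold or more, beside 1.42% of all tested genes. Ltc4s and Hpgd are label genes and Alox5ap was picked by its value, so the choice fixed this count in part. Hpgds, a prostaglandin D synthase of the same list, was lower in cluster 0, at 635 against 721 CPM (1.14-fold lower). The eicosanoid list as a whole had 4 of 10 members above 1 and a median log2 ratio of -0.03. Gng10, a G protein gamma subunit, was 1.24-fold higher.

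The genes lower in cluster 0 had larger differences than those higher, and most were highest in cluster 4. In WT vehicle, 64 of 3525 genes (1.82%) were called lower in cluster 0 than in clusters 1 to 5, and among clusters 0 and 2 to 5, 54 of the 64 were highest in cluster 4, 5 in cluster 3 and 5 in cluster 5. Cluster 1, with 20 cells in WT vehicle, was left out of this ranking. Neat1, a nuclear RNA, and Atr, a DNA damage kinase, were higher still there, at 109 and 92.5 CPM. In cKO IL-33, 35 of 3669 genes (0.954%) were called lower. Of these, 22 were called in both libraries, which is 34.4% of the WT vehicle genes and 62.9% of the cKO IL-33 genes.

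Mki67, a marker protein of dividing cells, was at 3.48 CPM in cluster 0 of WT vehicle and at 202 CPM outside it, 58.1-fold lower (40.3 to 87.0). Top2a, the topoisomerase that untangles sister DNA, was at 3.72 and 159 CPM (42.8-fold lower), and Cenpf, a kinetochore protein, at 4.32 and 103 CPM (23.7-fold lower). Both were also low in cluster 0 of cKO IL-33, at 1.19 and 2.50 CPM. Pclaf, a partner of the replication clamp, was at 0.840 and 53.7 CPM, and the linker histone gene Hist1h1b at 9.13 and 250.1 CPM. All 18 genes of the G2M list and all 18 of the S phase list had a lower level in cluster 0 than in clusters 1 to 5, with no minimum set. The 7 G2M genes and 3 S phase genes that passed 50 CPM did so only outside cluster 0, so their direction was fixed by that minimum. Of the S phase genes, Pcna stood at 44.9 and 85.1 CPM and Mcm3 at 46.5 and 73.6 CPM. Slbp, the third of these S phase genes, was 1.40-fold lower and not called. Low levels of dividing-cell genes were not particular to cluster 0. In clusters 2 and 3 of WT vehicle, Mki67 was at 4.14 and 1.68 CPM and Top2a at 7.68 and 1.96 CPM.

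**Figure D3:**
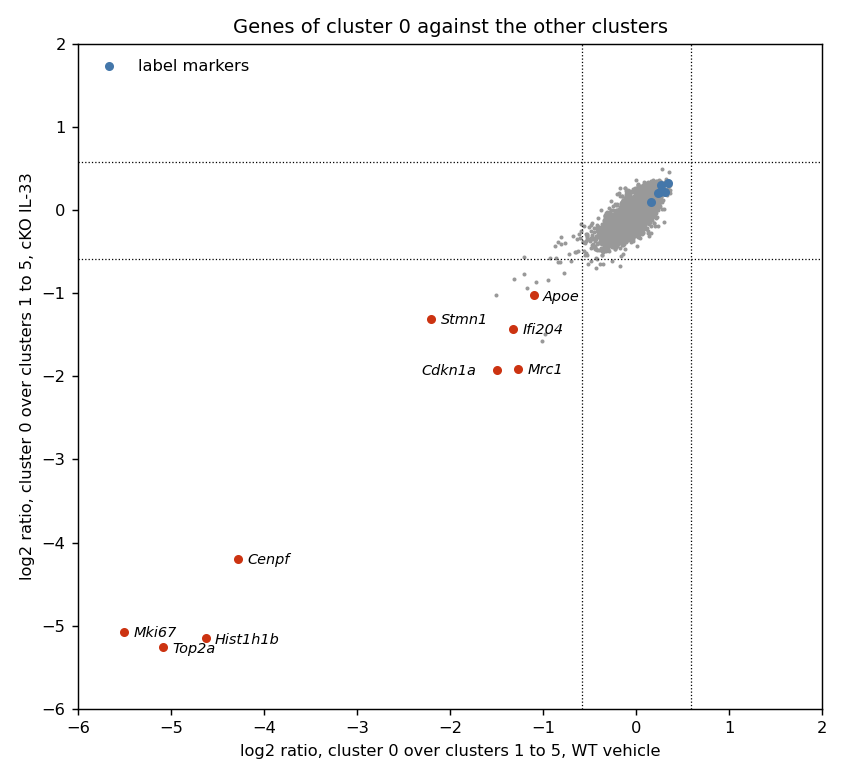
Log2 ratio of cluster 0 over clusters 1 to 5 in WT vehicle (x axis) and in cKO IL-33 (y axis) for the genes tested in both libraries, with dotted lines at the 1.5-fold size. The label genes (blue) lie inside the dotted lines, and the named genes in red lie below and to the left of them.

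The promoters of the low genes are shown because most of those with an entry share one short motif. CCAAT, which reads as ATTGG on the other strand, is the core of the box bound by the factor NF-Y and is common in genes of the cell cycle. In the 250 bases before the RefSeq start, it occurred on either strand in 7 of 8 of the 10 lowest genes that had a promoter entry, against 33.8% of all 32851 promoters. Top2a and Ube2c each held 6 matches, Mki67 3, Cenpf and Pclaf 2, Prc1 and Cenpe 1, and Birc5 0. For the label genes the motif searched was GAGGAA, which reads as TTCCTC on the other strand, the core bound by PU.1, a factor that microglia need. It occurred in 2 of the 5 label genes with an entry, Hpgd and H2-DMb1, against 23.3% of all promoters. CCAAT also occurred in 2 of these 5 label genes, and GAGGAA in 1 of the 8 low genes with an entry. A gene counted where any of its entries matched, while the shares are over single promoters. A match describes the letters only. The promoters below are from RefSeq (GRCm38.p6), 5′ to 3′ on the strand of the gene, with the first motif in capitals, on either strand, for the Top2a promoter at chr11:99024190-99024439 (minus) and the Cenpf promoter at chr1:189688087-189688336 (minus), and the second motif in capitals for the Hpgd promoter at chr8:56294302-56294551 (plus).
Top2a: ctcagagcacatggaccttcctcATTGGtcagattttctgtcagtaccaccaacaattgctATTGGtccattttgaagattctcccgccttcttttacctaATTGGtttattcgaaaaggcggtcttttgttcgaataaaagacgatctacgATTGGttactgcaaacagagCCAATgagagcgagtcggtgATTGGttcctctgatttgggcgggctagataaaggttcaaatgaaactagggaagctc
Cenpf: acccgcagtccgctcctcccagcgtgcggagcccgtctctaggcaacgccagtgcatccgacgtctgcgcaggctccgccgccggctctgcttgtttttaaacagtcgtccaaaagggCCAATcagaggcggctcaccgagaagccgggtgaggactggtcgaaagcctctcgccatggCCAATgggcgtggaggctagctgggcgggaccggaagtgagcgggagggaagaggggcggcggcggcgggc
Hpgd: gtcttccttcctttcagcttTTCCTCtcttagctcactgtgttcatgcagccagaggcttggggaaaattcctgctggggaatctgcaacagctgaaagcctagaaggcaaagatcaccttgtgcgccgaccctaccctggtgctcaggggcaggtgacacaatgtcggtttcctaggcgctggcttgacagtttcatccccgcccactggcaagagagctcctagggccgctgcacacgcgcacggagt

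Cluster 0 also held cells called S or G2M. The authors' calls put 29.5% of the cluster 0 cells of WT vehicle in S and 11.2% in G2M, against 36.0% and 55.1% in cluster 4. The shares were 26.0% and 9.32% in cluster 2, and 28.7% and 11.1% in cluster 3. Mki67 stood at 1.62 CPM in the G1-called cluster 0 cells, 2.39 CPM in the S-called and 16.9 CPM in the G2M-called, where cluster 4 had 917 CPM. Pcna was at 27.8 CPM in the G1-called cells, 75.3 CPM in the S-called and 54.2 CPM in the G2M-called, against 218 CPM in cluster 4. Mcm6 and Mcm2, subunits of the replicative helicase, were nearer in WT vehicle, at 34.7 and 25.1 CPM in the S-called cells against 82.4 and 46.3 CPM in cluster 4. In cKO IL-33 Pcna was the nearer, at 80.9 CPM in the S-called cells against 159 CPM in cluster 4. Mcm6 was at 25.1 and 76.0 CPM there, and Mcm2 at 7.81 (14 UMIs) and 27.4 CPM. The sources used here do not give the genes behind the phase calls. Where these genes were among them, their differences between called cells follow from the call itself. In cells thinned to 3000 UMIs, the G2M list gave a mean of 0.114 UMIs per cluster 0 cell and 12.3 per cluster 4 cell in WT vehicle. The means in clusters 2 and 3 were 0.115 and 0.135, so a low level was shared with these clusters.

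Type I interferon genes were also lower in cluster 0 than in the sum of clusters 1 to 5, but not all were lower than in cluster 2. All 22 list members with UMIs had a lower level in cluster 0 than in clusters 1 to 5 of WT vehicle, and of the 4 that reached 50 CPM within cluster 0 itself, 1 was called lower. That gene was Ifi27l2a, at 180.5 CPM against 282 CPM, and it was highest in cluster 4, at 587 CPM. Ifi204, a DNA sensor, was at 26.7 CPM in cluster 0 and 510.2 CPM in cluster 5, and the antiviral membrane protein gene Ifitm3 at 41.1 and 484 CPM. The chemokine gene Ccl5 was at 3.12 and 492 CPM. Apoe, the lipid carrier, was at 3338 CPM in cluster 0, 2868 CPM in cluster 2 and 13910.5 CPM in cluster 3 of WT vehicle. Against all of clusters 1 to 5, Apoe was 2.14-fold lower in cluster 0, and in cKO IL-33 it was 2.03-fold lower. Lyz2, the macrophage lysozyme, was at 78.0 CPM in cluster 0 and 258 CPM in cluster 3.

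Lists of other functions lay close to 1 on the same comparison in WT vehicle, with 0 members called in either direction. Over all 3525 tested genes, 1369 were above 1 and 2156 below, with a median log2 ratio of -0.05. The lysosomal list had 15 of 27 measured members above 1 with a median log2 ratio of 0.02, and the complement and phagocytosis list 11 of 16 with 0.08. Without cluster 4 these medians were -0.002 and -0.008, and in cKO IL-33 they were 0.04 and -0.007. Tyrobp, the adaptor of several microglial receptors, was 1.18-fold higher and Fcer1g, a shared Fc receptor chain, 1.15-fold higher. In MHC class II, 4 of 7 genes were above 1, with H2-DMa at 1.19-fold and H2-Oa at 1.22-fold higher, while the invariant chain gene Cd74 was 1.35-fold lower. The transcription factor list had 6 of 20 members above 1, and Mef2a was at 913 CPM in cluster 0 and 1071 CPM outside it. The cytokine receptor list had 11 of 21 above 1.

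Cluster 2 was the cluster nearest to cluster 0 by the label genes, and the comparison with it had a direction that ran across many genes. In WT vehicle, 10 of 3669 genes (0.273%) were called higher in cluster 0 than in cluster 2 and 129 (3.52%) lower, and in cKO IL-33 the counts were 10 of 3802 (0.263%) and 101 (2.66%). At 1.2-fold, 523 genes (14.3%) were higher and 1338 (36.5%) lower in WT vehicle. Over all genes, cluster 3 was nearer to cluster 0 than cluster 2 was by this count. Of 3412 genes tested against cluster 3 in WT vehicle, 136 were higher and 160 lower at 1.2-fold. Both clusters had similar depth, with medians of 5305 and 5248 UMIs per cell, but a cluster 0 cell held a median of 2141 genes and a cluster 2 cell 2262.

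Tspo, a mitochondrial outer membrane protein, was at 64.7 CPM in cluster 0 and 35.5 CPM in cluster 2 of WT vehicle (1.83-fold, 1.5 to 2.24), and 1.5-fold higher in cKO IL-33. Ifi27l2a, an interferon-inducible gene, was at 180.5 and 101 CPM (1.78-fold), and 2.81-fold higher in cKO IL-33. Ndufa1 and Ndufs6, subunits of respiratory complex I, were 1.55-fold and 1.58-fold higher in WT vehicle and 1.27-fold and 1.22-fold in cKO IL-33. Nuclear genes of oxidative phosphorylation had 22 of 23 members above 1 and 17 at 1.2-fold or more, with a median log2 ratio of 0.40 where all tested genes had -0.16. Sdhb, a subunit of complex II, was 1.52-fold higher. Ribosomal protein genes had 77 of 81 members above 1, with a median of 0.39 in WT vehicle, and 77 of 80 with 0.46 in cKO IL-33. The median ribosomal percent of UMIs per cell was 15.9 in cluster 0 and 12.3 in cluster 2 of WT vehicle, and 13.9 and 10.3 in cKO IL-33.

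Among the genes lower in cluster 0 than in cluster 2, Atxn1, a transcriptional corepressor, was at 30.4 CPM in cluster 0 and 57.0 CPM in cluster 2 (1.88-fold lower), and 1.51-fold lower in cKO IL-33. Pcnt, a scaffold of the centrosome, was at 28.7 and 53.8 CPM (1.87-fold lower), and 1.75-fold lower in cKO IL-33. Lifr, a receptor chain for leukemia inhibitory factor, was at 67.5 and 107 CPM (1.59-fold lower), and Il7r, the interleukin-7 receptor chain, at 153 and 197 CPM (1.29-fold lower). The TGF-beta pathway had 0 of 11 measured members above 1, with Tgfbr2, its type II receptor, at 275 and 389 CPM. Microglial transcription factors had 2 of 20 above 1, with Mef2a at 913 and 1348 CPM and Runx1 at 189 and 236 CPM. Of the cytokine receptors, 2 of 21 were above 1. These shares stand beside an all-gene median of -0.16, so most genes of any kind were below 1 in this comparison.

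Gene length ran through the same comparison. The 521 genes with a known span among those at least 1.2-fold higher in cluster 0 than in cluster 2 of WT vehicle had a median span of 6.29 kb from first to last annotated base, the 1329 at least 1.2-fold lower had 61.1 kb, and all 3654 tested genes had 28.2 kb. Atxn1 spans 415254 bases and Lifr 106876 bases, while Ndufa1 spans 3576 bases. With the genes cut into 10 bins of equal size by span, the median log2 ratio went from 0.28 in the shortest bin (median span 2.92 kb) through -0.11 in the fifth (24.2 kb) to -0.36 in the longest (173 kb). Across genes, Spearman's rho between log2 ratio and span was -0.60 in WT vehicle over 3654 genes, -0.62 in cKO IL-33 over 3785 and -0.42 in WT IL-33 over 4244. Without ribosomal protein and mitochondrial genes it was -0.58 in WT vehicle. Genes are not independent replicates, and all genes of a comparison share the same cells, so rho is a description. Against clusters 1 to 5 rho was -0.39 in WT vehicle, -0.53 in cKO IL-33 and 0.05 in WT IL-33. Against cluster 3 it was -0.02 in WT vehicle, and the ribosomal protein genes had a median log2 ratio of 0.04. The ribosomal percent and the genes per cell given above moved with this difference, and their part in it was not tested.

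**Figure D4:**
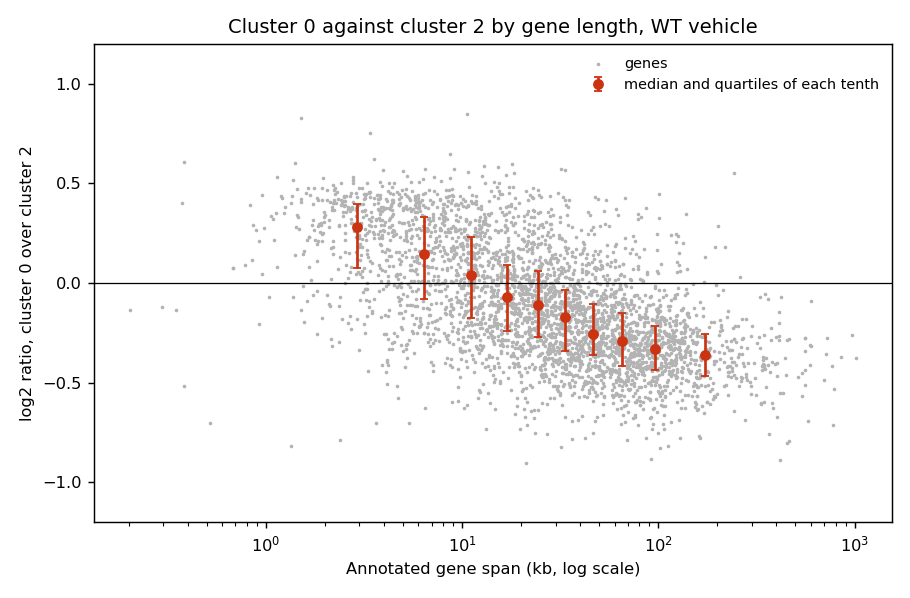
Log2 ratio of cluster 0 over cluster 2 in WT vehicle (y axis) against annotated gene span in kb (log axis). Grey points are genes, and red points with bars are the median and quartiles of each of 10 bins of genes by span. The medians go from 0.28 for the shortest genes to -0.36 for the longest.

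The variance between cluster 0 cells of 1 library was close to that of counting noise for most genes. At a low mean, a real difference between cells adds little to this variance, so such genes cannot be called uniform. Values of genes with unlike means do not rank their relative spread. In WT vehicle cells thinned to 3000 UMIs, the median Fano factor (variance over mean, 1 for pure counting) was 1.07 over 4465 genes with a mean of at least 0.1 UMI per cell, and 21 genes exceeded 2. The highest belonged to Cst3 (9.17, mean 81.9 UMIs per cell), the nuclear RNA Malat1 (9.16, mean 69.3), Apoe (6.21, mean 9.62), Gm42418 (5.46), Tmsb4x (3.95), Actb (3.52), Cd74 (3.31) and mt-Atp6 (2.94). Cd74 was found in 10.6% of those cells and reached 13 UMIs in 1 cell, so its spread rested on a minority of cells. The label genes ranged from the median to well above it, with 1.06 for Ypel3, 1.12 for H2-DMb1, 1.28 for Hpgd, 1.28 for Rgs10, 1.47 for Ltc4s and 1.63 for Gpr34. P2ry12 had 2.09.

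In WT IL-33, cluster 0 held more of the listed inflammatory genes than in the other libraries and less of some label genes. Of 3892 genes, 586 (15.1%) were called higher and 199 (5.11%) lower in the 144 cluster 0 cells of WT IL-33 than in those of WT vehicle, which had a higher median depth and a different sex make-up as given above. With 515690 UMIs in the WT IL-33 cells, counting error alone can carry a low gene past the call. From WT IL-33 to cKO IL-33 to WT vehicle, Hpgd stood at 264, 318 and 297 CPM and Gpr34 at 1241, 1484 and 1248 CPM. Rgs10 was lower in WT IL-33, at 878 CPM against 1201 and 1234 CPM, Ltc4s at 997 CPM against 1211 and 1332 CPM, and Ypel3 at 145 CPM against 211 and 205 CPM. H2-DMb1 was at 69.8, 101 and 94.5 CPM, with an interval of the WT IL-33 over WT vehicle ratio that held 1 (0.514 to 1.03). Of the wider set, P2ry12 was at 2661 CPM against 3562 and 3808 CPM. Tmem119 was at 1801, 1624 and 1394 CPM. None of these 8 passed the 1.5-fold size between WT IL-33 and WT vehicle.

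Il1b, the gene of interleukin-1 beta, had 2 UMIs (0.240 CPM) in cluster 0 of WT vehicle, 5 (0.595 CPM) in that of cKO IL-33 and 50 (97.0 CPM) in that of WT IL-33. Its ratio of WT IL-33 over WT vehicle was 404, with a counting interval of 106 to 3426. Tnf was at 111 CPM in WT IL-33 against 2.86 and 2.76 CPM in the cKO and vehicle libraries (40.0-fold higher, 24.3 to 68.1), and, in that order, the chemokine gene Ccl2 at 142, 9.88 and 5.52 CPM. Ccl3 was at 159, 18.6 and 7.56 CPM, Ccl4 at 138, 10.9 and 7.20 CPM, and Tnfaip2 at 101, 6.43 and 4.56 CPM. Cd72, a surface lectin, was at 124, 5.24 and 5.76 CPM. These 7 genes were picked for high ratios of WT IL-33 over WT vehicle, and they reached 50 CPM only in WT IL-33. In each of them the cKO IL-33 level was below that of WT IL-33, which this choice fixed in part. The cKO IL-33 level was above that of WT vehicle for Ccl3, Ccl2 and Il1b among others, and below it for Cd72. For Il1b this rested on 5 against 2 UMIs. Of the 32 genes of the NF-kB target and inflammatory list, all 31 with UMIs had a higher level in WT IL-33 than in WT vehicle. Only 4 reached 50 CPM in WT vehicle itself, and 3 of these were called higher. Of the 18 immediate early genes, 15 had a higher level and 3 a lower one, and all 6 at 50 CPM or more in WT vehicle were called higher, with Jun at 285 against 112 CPM.

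Tsix, the antisense partner of Xist, was at 95, 191 and 0.480 CPM in that order, lowest in the library with the fewest female-called cells and highest in the one with the most. Among the lowest ratios of WT IL-33 over WT vehicle, Ifi27l2a was at 27.1, 107 and 180.5 CPM, the receptor gene Gpr160 at 11.6, 51.9 and 69.0 CPM, and Myo18a at 9.70, 43.4 and 57.9 CPM. Rgs7bp was at 17.5, 63.3 and 82.0 CPM, and Gm26917 at 58.2, 81.2 and 215 CPM. Between cKO IL-33 and WT vehicle, 59 of 3493 genes (1.69%) were called higher and 10 (0.286%) lower. Fkbp5, a glucocorticoid-responsive gene, was at 328 against 119.9 CPM and Sult1a1 at 124 against 39.1 CPM. Both were high in WT IL-33 too, at 332 and 180.3 CPM. These comparisons share the WT vehicle library.

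Set beside cluster 1 of the same WT IL-33 library, cluster 0 cells held less of nearly all inflammatory genes, by amounts that differed widely between genes. Cluster 2 of that library shared this low level. In thinned cells, the list of inflammatory genes had a median of 8 UMIs in cluster 0 and 6 in cluster 2. The medians were 46, 12, 19.5 and 45 UMIs in clusters 1, 3, 4 and 5 of that library. Of the 32 list members, 31 were below their cluster 1 level, the exception being Nfkbid with 9 UMIs in cluster 0 (17.5 against 10.4 CPM), and the median was 12.4% of cluster 1. Over the 28 genes at 50 CPM or more in cluster 1, a minimum that favours genes high there, the cluster 0 level ran from 0.911% of that of cluster 1 for Saa3 to 75.9% for Nfkbia, with a median of 10.4%. Saa3, Cd40 and Traf1 had 1 UMI each in cluster 0. Il12b, a subunit of interleukin-12, was at 19.4 CPM in cluster 0 and 1381 CPM in cluster 1 (1.40%), and Ccl4 at 138 and 5674 CPM (2.43%). Il1b was at 97.0 and 1320.4 CPM (7.34%) and Tnf at 111 and 433 CPM (25.5%). Nfkb1, a subunit of NF-kB, was at 207 and 426 CPM (48.7%), and Nfkbia, its inhibitor, at 617 and 812 CPM. Nfkbiz, another regulator of the pathway, was lower relative to cluster 1, at 145 and 988 CPM (14.7%). Nfkbia had UMIs in 113 of the 144 cells, Tnf in 34 and Il1b in 17. All 28 genes were above their level in cluster 0 of WT vehicle.

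**Figure D5:**
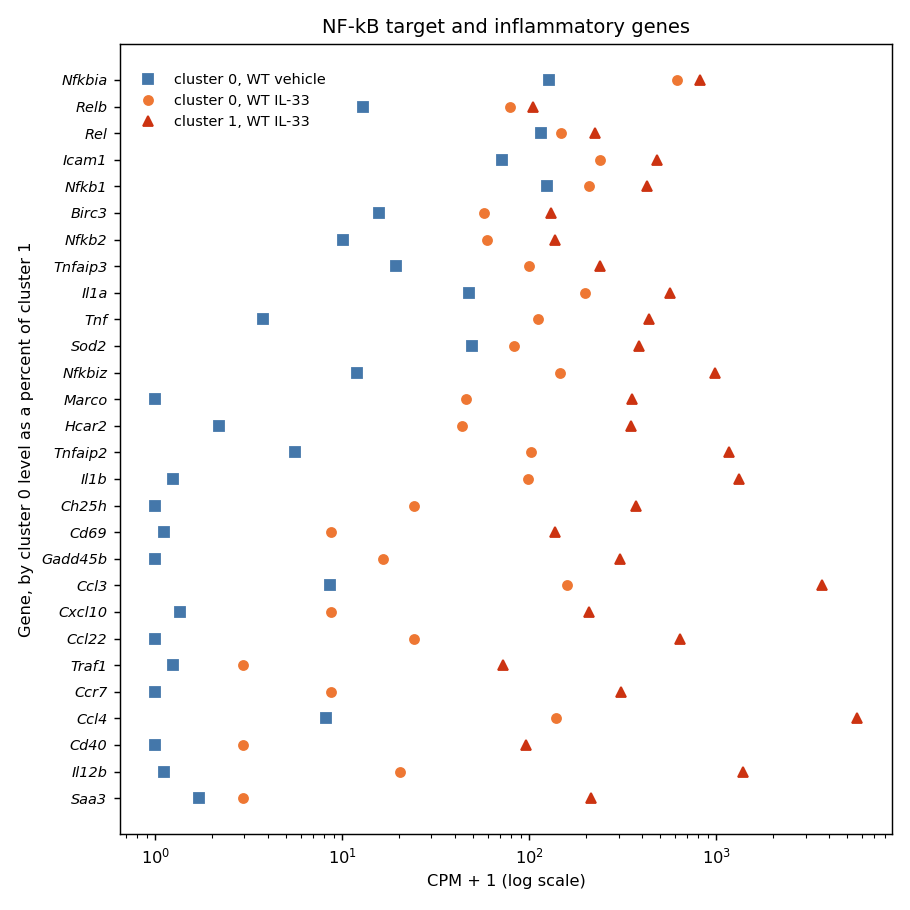
CPM plus 1 (log axis) of 28 NF-kB target and inflammatory genes in cluster 0 of WT vehicle (squares), cluster 0 of WT IL-33 (circles) and cluster 1 of WT IL-33 (triangles), ordered by the cluster 0 level as a percent of cluster 1. Circles lie between squares and triangles in every row, nearest to the triangles for Nfkbia at 75.9%.

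Per cell, the inflammatory list took a median of 0.0566% of UMIs in cluster 0 of WT vehicle, 0.0630% in cKO IL-33 and 0.214% in WT IL-33, against 1.5% in cluster 1 of WT IL-33. The 10th to 90th percentiles were 0.0186 to 0.112% and 0.0672 to 0.456% in cluster 0 of WT vehicle and WT IL-33, and 0.477 to 4.79% in cluster 1. In these shares the 10th to 90th percentile ranges of clusters 0 and 1 in WT IL-33 did not overlap. The full ranges did, at 0.0246 to 1.16% and 0.0309 to 17.3%. In thinned cells, the 10th to 90th percentile ranges of these clusters overlapped as well. They were 2 to 16 UMIs of the list in cluster 0 and 14 to 149 in cluster 1. No cell type that should lack these transcripts was deposited. The level as a percent of cluster 1 differed between genes, as given above, and the part of free RNA in the lowest percents was not tested.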

How the data were processed

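CD45-positive thalamic cells were profiled in 3 libraries, 1 per group. Per the labels, they were 10x 3′ libraries, and GRCm38, mm10, Seurat 4.0.1 and Cell Ranger 5.0 are listed, with no role or order, per the submitters' processing notes. The deposited matrix holds UMI counts per gene and cell as the authors made them, not normalized. Per the file headers, the deposited cell table gives the percent of UMIs from mitochondrial and ribosomal genes, the authors' clusters, phase and sex calls. No doublet caller was run, and the sources used here do not say whether the authors removed doublets. No cells were filtered. The UMIs summed per cell equalled the deposited count in every cell.

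Counts were summed per cluster and library and scaled to CPM. Ratios have exact conditional binomial (Clopper-Pearson) 95% intervals, which cover counting error only. Log2 ratios used a pseudocount of 1 CPM, and a call needed 50 CPM on either side, a 1.5-fold ratio and an interval without 1. Cells were thinned to 3000 UMIs for per-cell values. Gene spans came from GENCODE vM21 (GRCm38). Scripts ran in Python 3.11.15 with numpy 2.4.6, scipy 1.17.1, pandas 2.3.3 and matplotlib 3.10.9, and the ratios were tested on simulated data, where some unchanged genes were called in the WT IL-33 over WT vehicle comparison.

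The members, gene lists and tests were chosen with earlier results of these data known. Named genes were the 6 label genes, the 14 highest and 10 lowest called ratios against clusters 1 to 5 in WT vehicle on the same side of 1 in all libraries, the 6 highest and 6 lowest against cluster 2, up to 4 members of each list, the 8 highest and 5 lowest ratios of WT IL-33 over WT vehicle, the 3 highest and 3 lowest of cKO IL-33 over WT vehicle, and the 8 genes of highest Fano factor. The rule gave no higher gene against clusters 1 to 5. Genes given as higher there at 1.2-fold, and others outside the rule, were chosen after their values were seen.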

Additional observations from a re-analysis of the deposited data

Results flagged for a closer look

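Of 109 named genes compared between the libraries with many cluster 0 cells, 1 had intervals on opposite sides of 1. Btg2, an antiproliferative immediate early gene, had a ratio of cluster 0 over clusters 1 to 5 of 1.128031 in WT vehicle (1.04 to 1.22, at 155 and 137 CPM) and of 0.921081 in cKO IL-33 (0.858 to 0.989). The difference between the libraries was not tested, since each group is 1 library.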

How the results depend on the processing

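No paired analysis was possible because each group is 1 library. The balance turned in WT IL-33, where more genes and list members were called higher than lower. In place of 0 genes higher than in clusters 1 to 5, there were 30 with all libraries summed, 678 in WT IL-33, 3 at 10 CPM, 54 with no minimum, 50 at 1.2-fold and 1 against clusters 2 and 3. In place of 64 lower there were 332, 583, 419, 1100 and 397 under the first 5 of these and 11 under the last, 35 in cKO IL-33, 32 at 2-fold, 21 in G1-called cells and 17 without cluster 4. List members called higher went from 0 to 8 with all libraries and 68 in WT IL-33. Those called lower went from 15 to 47 and 53, 87 with no minimum, 8 in G1-called cells and 8 without cluster 4. Against cluster 2, 10 higher and 129 lower became 70 and 537 at 10 CPM, 123 and 843 with no minimum, 0 and 0 at 2-fold, 34 and 213 in thinned cells and 523 and 1338 at 1.2-fold, and 31 were higher in G1-called cells. Within cluster 0, 586 higher and 199 lower in WT IL-33 became 1079 and 355 at 10 CPM, 1183 and 372 with no minimum and 199 and 46 at 2-fold. For cKO IL-33, 59 and 10 became 250 and 62, 590 and 178, 14 and 4, and 118 and 31 in cells of 2500 to 4500 UMIs. The 1.2-fold size, clusters 2 and 3 alone and the 2500 to 4500 UMI range were chosen after seeing the data. The ratio of each of the 6 label genes stayed above 1 under every alternative run, from 1.04 to 4.45, but in G1-called cells 4 of the 6 intervals lay above 1. Median log2 ratios of 21 lists changed sign in 37 of 227 values. With 144 cells, WT IL-33 has the widest intervals, and no interval covers variation between animals.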
